A study of Homo sapiens with 2 samples.

Results

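TXNIP, the alpha-arrestin genes ARRDC1 to ARRDC4 and the thioredoxin system genes TXN, TXN2, TXNRD1 and TXNRD2 were compared between SUDHL6 and HT, established cell lines from human diffuse large B cell lymphoma. The 9 genes were chosen by family, with their log2 values in these lines in view, and each was represented by the probe set whose annotation names that gene alone, taking the one with the highest mean of both arrays if there were several. Of the 9 genes, 8 had a value, among 14232 genes with 1 value in all. TXN was not analysed here. Each line was measured on 1 Affymetrix exon array, which carries probes along the exons of a gene, with total RNA of untreated cells grown in serum-containing RPMI medium. Per its title, the series belongs to work on a small-molecule inhibitor of the Polycomb repressive complex PRC2, and these arrays hold the baseline without it. Each line had 1 array, which gives no measure of how cultures vary, so differences are described for these 2 arrays without a test. Values are log2 expression values after RMA, and differences are SUDHL6 minus HT, so a difference of 1 is 2-fold.

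Both lines carried RNA of B cells. Of 9 B cell marker genes with a value, all 9 reached the dim level, which is the 95th percentile of 225 olfactory receptor genes taken as unexpressed, 3.81 in SUDHL6 and 4.11 in HT. Among the 9, MS4A1 alone was past 2-fold, at 11.33 in SUDHL6 and 8.75 in HT, 6.01-fold higher in SUDHL6. The lines also differed in germinal centre B cell markers, of which 8 had a value and 7 reached the dim level. GCSAM (9.31 and 7.61) and CD38 (8.83 and 7.37) were over 2-fold higher in SUDHL6. SERPINA9 (3.96 and 8.35) was 20.8-fold higher in HT. Of 10 T cell, 7 NK cell and 8 myeloid markers with a value, 3, 3 and 2 were above the dim level, and 0 of these were 2-fold apart. The same held for 3 of 6 epithelial markers, KRT8 among them (8.27 and 8.12 in SUDHL6 and HT), and for 3 of 4 erythroid and platelet markers. Of 8 fibroblast and endothelial markers, 4 were above it, and 2 of them favoured HT: the matrix genes LUM (2.38 and 6.22, at least 5.29-fold) and DCN (2.09 and 5.05, at least 2.35-fold). The part of these markers in the results below was not tested. In cultured lines, a change in every cell and a change in the share of cells that express a gene cannot be told apart.

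TXNIP is an alpha-arrestin that binds reduced thioredoxin and takes part in the removal of glucose transporters from the cell surface. Its transcription is known to follow glucose through the factors MondoA (MLXIP) and MLX, which bind carbohydrate response elements in its promoter. The ARRDC proteins share the arrestin fold and recruit ubiquitin ligases of the NEDD4 family to membrane cargo. Thioredoxins reduce disulfide bonds in other proteins and are themselves kept reduced by thioredoxin reductases, which are selenoproteins, in the cytosol (TXN, TXNRD1) and in mitochondria (TXN2, TXNRD2).

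Stretches of 3 promoters are shown because TXNIP and ARRDC3 differed by over 4-fold between the lines, while ARRDC4, which like TXNIP is known as a target of MondoA, differed by less than 1 on the log2 scale. They come from RefSeq on GRCh38.p14, which holds promoter windows of 250 bases before to 50 after a start for 8 of the 9 genes, 14 windows in all. In the TXNIP promoter, on the minus strand at chr1:145996621-145996749 (170 to 42 bases before the start), capitals mark, in order, an inverted CCAAT box, a forkhead motif, a CCAAT box and a pair of carbohydrate response elements. In ARRDC3, on the minus strand at chr5:91380098-91380156 (59 to 1 bases before the downstream of 2 annotated starts, which lie 3220 bases apart), they mark the forkhead motif on the opposite strand. In ARRDC4, on the plus strand at chr15:97960463-97960670 (240 to 33 bases before the start), they mark an E box and 3 CCAAT boxes.
TXNIP: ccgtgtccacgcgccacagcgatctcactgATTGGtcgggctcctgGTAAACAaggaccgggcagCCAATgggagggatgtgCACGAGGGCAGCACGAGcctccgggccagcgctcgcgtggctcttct
ARRDC3: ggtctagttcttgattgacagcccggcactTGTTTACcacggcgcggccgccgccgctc
ARRDC4: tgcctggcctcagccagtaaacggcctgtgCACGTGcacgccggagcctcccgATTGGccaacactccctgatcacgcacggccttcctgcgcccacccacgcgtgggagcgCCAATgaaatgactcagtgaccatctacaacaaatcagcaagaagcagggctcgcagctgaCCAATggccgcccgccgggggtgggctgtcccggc

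The windows of TXNIP and ARRDC3 shared a forkhead motif. GTAAACA, searched like all motifs on both strands, lay 124 to 118 bases before the upstream start of TXNIP and 29 to 23 bases before the downstream start of ARRDC3, and in no other of the 14 windows. It is held by 1202 of all 35116 promoter windows (3.42%). The pair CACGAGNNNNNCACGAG lay 88 to 72 bases before the start of TXNIP and is held by 2 of all windows, 1 of them that of TXNIP. With any base allowed at the fifth position of each element (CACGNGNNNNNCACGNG), 20 windows hold a pair, and TXNIP remained the only one among these genes. The E box CACGTG, which is 1 form of the CACGNG element, occurred in ARRDC4 alone, 210 bases before the start, and is held by 7.26% of windows. ATTGG, the inverted CCAAT box, occurred in 7 of the 14 windows and is held by 34.6% of all. The core TGACNNNGC of the antioxidant response element, which NRF2 binds, occurred in both windows of TXNRD1 and in 1 of ARRDC2, and in 13.3% of all windows. A match is a description of these letters, and the motifs were chosen with the values and sequences known. Which start the array's probe sets cover was not given in the sources used here.

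**Figure D1:**
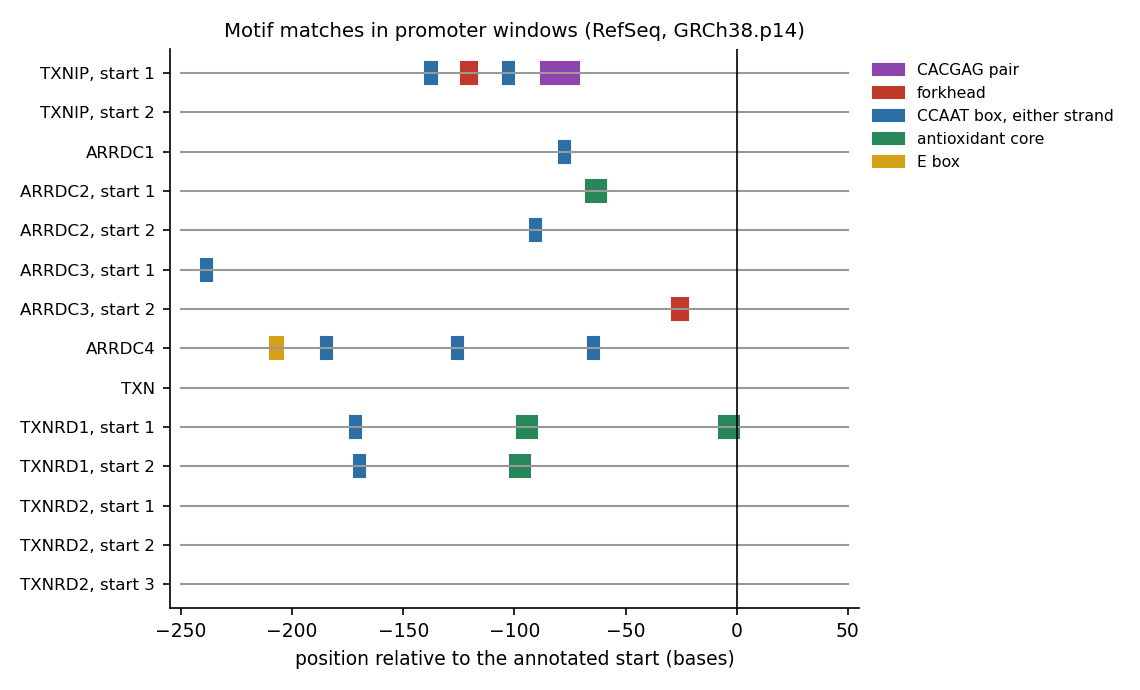
Matches of 5 motifs on either strand (coloured boxes) in the 14 RefSeq promoter windows of 8 genes, against the position in bases from the annotated start at 0; starts are numbered along the direction of transcription. The forkhead motif (red) appears in TXNIP, start 1, and ARRDC3, start 2, and the CACGAG pair (purple) in TXNIP, start 1.

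TXNIP and ARRDC3 were the 2 members that differed by at least 1, and both were higher in SUDHL6. TXNIP had a log2 value of 7.06 in SUDHL6 against 4.88 in HT, which is a difference of 2.18 or 4.54-fold. ARRDC3, an adaptor known to act on the beta2-adrenergic receptor and on integrin beta 4, had a value of 6.99 in SUDHL6 against 4.77 in HT, which is a difference of 2.22 or 4.66-fold. The 2 differences were thus within 0.04 of each other on the log2 scale. Both genes lay above the dim level in both lines, TXNIP by 3.25 in SUDHL6 and 0.76 in HT and ARRDC3 by 3.18 and 0.66, so their folds are measured values and not bounds.

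These differences are in the tail of all genes. Over the 14232 genes, ARRDC3 was in place 134 and TXNIP in place 148 when differences were ordered from the highest in SUDHL6. Of 1664 genes whose mean value lay within 0.5 of that of TXNIP, 27 (1.62%) were at least as far higher in SUDHL6. For ARRDC3 the same count was 25 of 1700 (1.47%). The differences of the 225 olfactory receptor genes lay between -1.03 and 1.26 in their central 95%. TXNIP and ARRDC3 lay outside this range and the other 6 members inside it, although most olfactory receptor genes were dim and their spread is not the error of brighter genes. Because the members were chosen with these values in view, the places, shares and range only describe the 2 genes and test nothing.

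**Figure D2:**
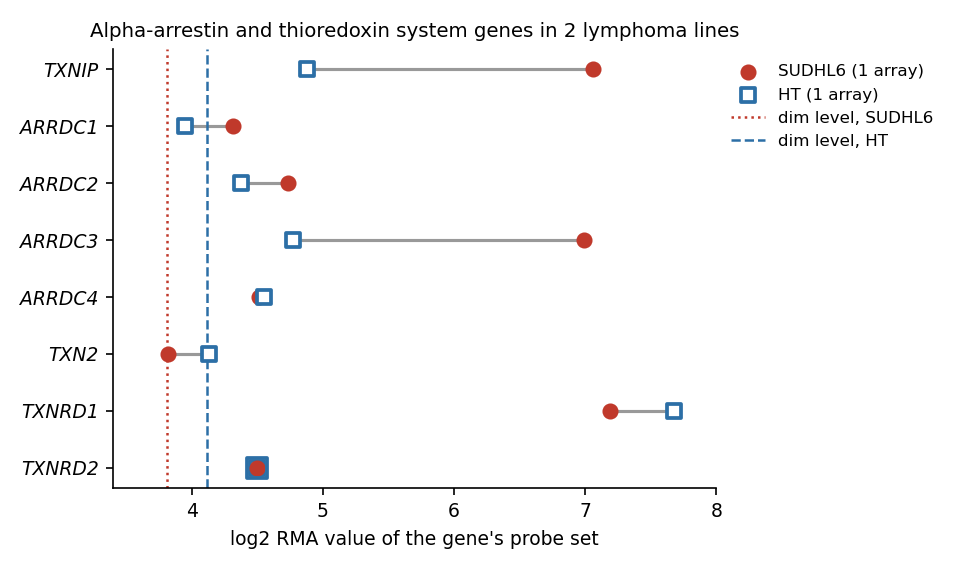
Log2 RMA value of each gene's probe set in SUDHL6 (red circles) and HT (blue open squares), 1 array each, with the dim level of each line as a vertical line. TXNIP and ARRDC3 are near 7 in SUDHL6 and below 5 in HT, and the 2 values of each other gene lie within 0.5 of each other.

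The other 3 alpha-arrestins among the members differed by less than 1. ARRDC1, which recruits TSG101 to bud vesicles from the plasma membrane, stood at 4.31 in SUDHL6 and 3.95 in HT, where it was below the dim level, a difference of 0.36. A second probe set named for ARRDC1 and its antisense gene ARRDC1-AS1 ran the other way, at 4.51 and 5.25, a difference of -0.74. The direction for ARRDC1 therefore depends on the probe set, and the second one does not separate the signal of the gene from that of its antisense partner. ARRDC2 stood at 4.73 and 4.38, a difference of 0.35. ARRDC4, the closest relative of TXNIP in its known response to glucose, was level between the lines, at 4.51 and 4.55 in SUDHL6 and HT. Its difference was -0.04, and the sign turned to 0.01 when the median of all genes above the dim level was subtracted. By the chosen probe sets, the alpha-arrestins among the members split into 2 genes with over 4-fold more signal in SUDHL6 and 3 within 0.4 of equality. ARRDC5, which was not among the members, had no value.

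In the values as deposited, none of the 3 thioredoxin system genes with a value was higher in SUDHL6, as 43.3% of all genes were. TXNRD1, the cytosolic reductase, read 7.19 in SUDHL6 against 7.67 in HT, so that SUDHL6 minus HT was -0.48. This was the member nearest to the threshold of 1 among those under it. TXN2, the mitochondrial thioredoxin, stood at 3.82 and 4.13, a difference of -0.31, and exceeded the dim level by only 0.01 in SUDHL6 and 0.02 in HT, so its values cannot be set apart from those of unexpressed genes. TXNRD2, the mitochondrial reductase, held exactly the same value, 4.50, on both arrays, as did 541 of the 14232 genes. Under the 3 other scalings its difference was slightly above 0, at most 0.05. Another reductase gene, TXNRD3, shares its probe set with TXNRD3IT1 in the annotation and was left out.

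Set against all genes, 2 of the 8 members (TXNIP and ARRDC3) passed the threshold of 1 in favour of SUDHL6 and 0 in favour of HT. Of all 14232 genes, 3.50% did so for SUDHL6 and 4.62% for HT, and of the 9405 genes that reached the dim level, as all 8 members did, 5.30% and 6.99%. Either way, 8.12% of all genes and 12.3% of those reaching the dim level passed. TXNIP and ARRDC3 also passed a difference of at least 2 in favour of SUDHL6, as 1.17% of all genes and 1.78% of those reaching the dim level did. The median difference of the 8 members was 0.18 and that of all genes -0.04. With probe sets naming several genes included, which replaces the value of ARRDC1, the median of the members was -0.02. The members were listed with these values known, so the count is given as a description.

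**Figure D3:**
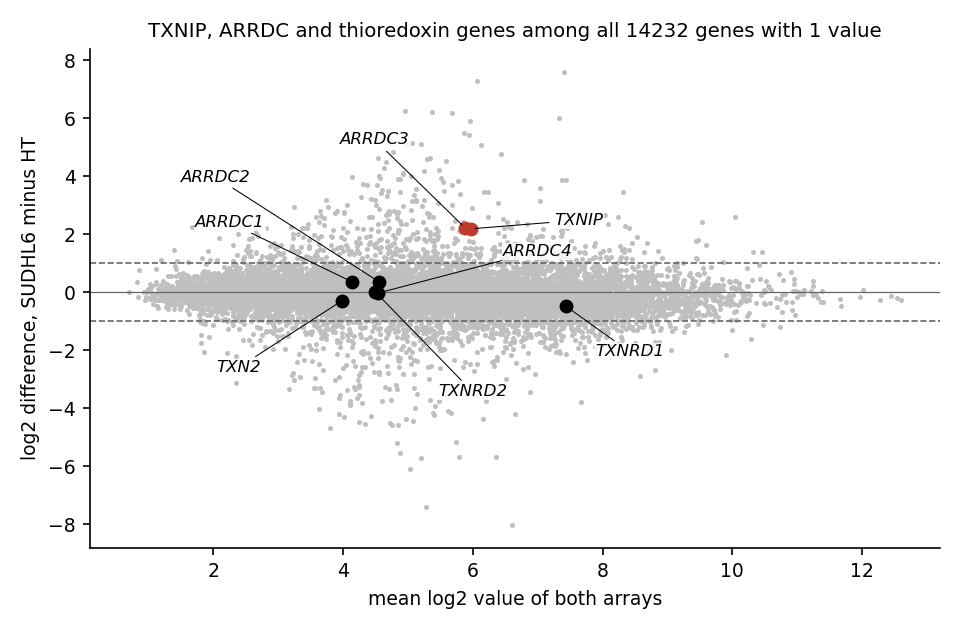
Log2 difference, SUDHL6 minus HT, against the mean log2 value of both arrays for 14232 genes (grey), with the 8 members labelled; dashed lines mark differences of 1 and -1. TXNIP and ARRDC3 (red) lie at 2.18 and 2.22, and the other 6 (black) between -0.48 and 0.36.

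The genes next to TXNIP and ARRDC3 on their chromosomes did not pass the threshold in favour of SUDHL6. Among the 5 genes with a value on each side of TXNIP on chromosome 1, the differences ran from -2.01 to 0.20, with a median of -0.05. LIX1L, 2 places away, was 4.03-fold higher in HT, at 4.48 in SUDHL6 and 6.50 in HT, and was the only one of the 10 past the threshold. Among the 10 neighbours of ARRDC3 on chromosome 5, the differences ran from -1.03 to 0.75, with a median of -0.13. POLR3G, a subunit gene of RNA polymerase III, was 2.04-fold higher in HT, at 5.16 and 6.19. Its difference of -1.03 was just past the threshold, and its call under other scalings was not examined. In each region 0 of 10 neighbours were 2-fold higher in SUDHL6 and 1 was 2-fold higher in HT. Only 6 of the 10 around TXNIP and 7 of the 10 around ARRDC3 reached the dim level and could be called. Among all genes, 3.50% passed for SUDHL6 and 4.62% for HT, so these counts are given as a description. LIX1L and POLR3G were named after their values were seen.

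**Figure D4:**
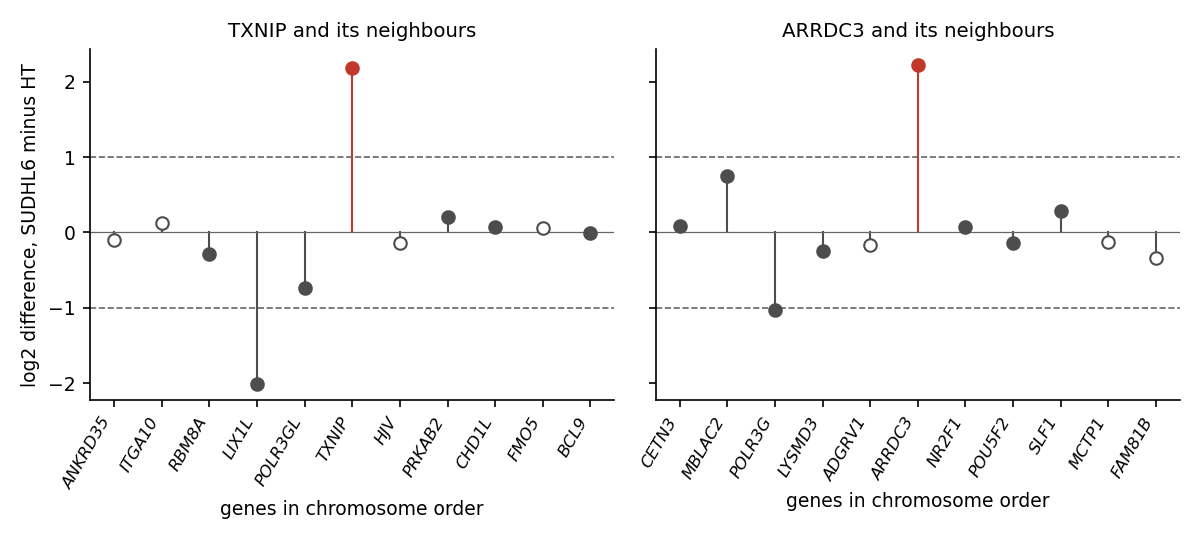
Log2 difference, SUDHL6 minus HT, of TXNIP and ARRDC3 (red) and of the 5 protein-coding genes with a value on each side, in RefSeq order; open circles did not reach the dim level and dashed lines mark 1 and -1. The red points stand at 2.18 and 2.22, and the highest neighbours at 0.20 and 0.75.

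Over 2 arrays, the likeness of 2 genes can only be the nearness of their differences. The 3 genes nearest to TXNIP were TBC1D4 (2.19), SP110 (2.19) and HAVCR2 (2.17). Those nearest to ARRDC3 were NIN and CD83, both at 2.22, and BCHE at 2.23. The HT values of TBC1D4, HAVCR2 and BCHE lay below the dim level, and that of BCHE (1.71, against 3.93 in SUDHL6) allows no fold, since its SUDHL6 value is under the dim level of HT.

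Genes known to regulate TXNIP, where they had a value, differed by less than 1. Of 22 listed factors, 18 had a value and 17 were above the dim level. Of the 18, 0 were 2-fold apart, and the median difference was -0.07, taken like each list's median here over all its genes with a value. For comparison, 8.12% of all genes and 12.3% of those reaching the dim level were 2-fold apart. The count of 0 is thus a description and not a result about these factors. MLXIP stood at 5.19 in SUDHL6 and 4.95 in HT, and its partner gene MLX at 6.42 and 6.31. A probe set that MLX shares with PSMC3IP ran the other way, at 6.08 and 6.64, a difference of -0.56. MYC, whose product opposes MondoA at shared sites, stood at 7.62 and 7.01, a difference of 0.62. FOXO1, a forkhead factor known to act at TXNIP, stood at 6.66 on both arrays. The glucocorticoid receptor gene NR3C1 stood at 6.59 and 6.57. The difference furthest from 0 was that of MYCN, -0.77 (5.50 and 6.27), which was 0.03 with its probe set of the lowest mean and -0.37 with the mean of its probe sets. The values are RNA levels and hold nothing on where these factors are in the cell or whether they are active. Of these factors, MYCN was named by rule and the others after their values were seen.

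In the list of NEDD4 family ligases and their partners, the ligase NEDD4L and the adaptor genes NDFIP1 and NDFIP2 were higher in HT by at least 1. Of 15 listed genes, 12 had a value and 11 reached the dim level. The median difference was -0.33, 10 of the 12 were lower in SUDHL6 than in HT, 3 of them by at least 1, and 0 were higher in SUDHL6 by at least 1. That 0 holds for probe sets naming 1 gene. With those naming several included, SMURF1, another ligase of the family, passed the threshold in favour of SUDHL6, at 6.59 and 5.41 on a probe set shared with TRRAP, against 5.89 and 6.10 on its own probe set. Of all genes, 7534 of 14232 were lower in SUDHL6. By the threshold of 1, 4.62% of all genes and 6.99% of those reaching the dim level were higher in HT. NDFIP1 and NDFIP2 encode membrane adaptors that activate these ligases. NDFIP1 stood at 3.91 in SUDHL6, close to the dim level, and 5.87 in HT, 3.91-fold higher in HT. NDFIP2 stood at 4.53 and 6.42, 3.71-fold higher in HT. NEDD4L, a ligase that acts on ion channels, stood at 4.92 and 6.74, 3.52-fold higher in HT. Other ligases of the family differed by less, with ITCH at 7.80 and 8.24, NEDD4 at 5.85 and 5.23 and WWP1 at 7.40 and 6.93. TSG101, the partner of ARRDC1, stood at 7.49 and 7.96. SMURF1, ITCH, NEDD4, WWP1 and TSG101 were named after their values were seen.

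Among other genes of the arrestin fold, 5 of 9 had a value and 2 reached the dim level. VPS26A, a subunit of the retromer that returns membrane proteins from endosomes, was 2.43-fold higher in HT, at 7.42 in SUDHL6 and 8.70 in HT. The beta-arrestin gene ARRB1 did not reach the dim level of either line. Of 14 listed cargo proteins and effectors of alpha-arrestins, 12 had a value and 8 were above the dim level. Of the 8, 0 were 2-fold apart, against 12.3% of all genes reaching the dim level. The median difference over the 12 was 0.09. The glucose transporter gene SLC2A1, a known cargo of TXNIP, stood at 6.29 and 6.24. The hexokinase gene HK1 was the furthest from 0, at 4.70 and 5.66, and HK2 stood at 6.31 and 6.33. ARRB1, SLC2A1 and HK2 were named after their values were seen.

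**Figure D5:**
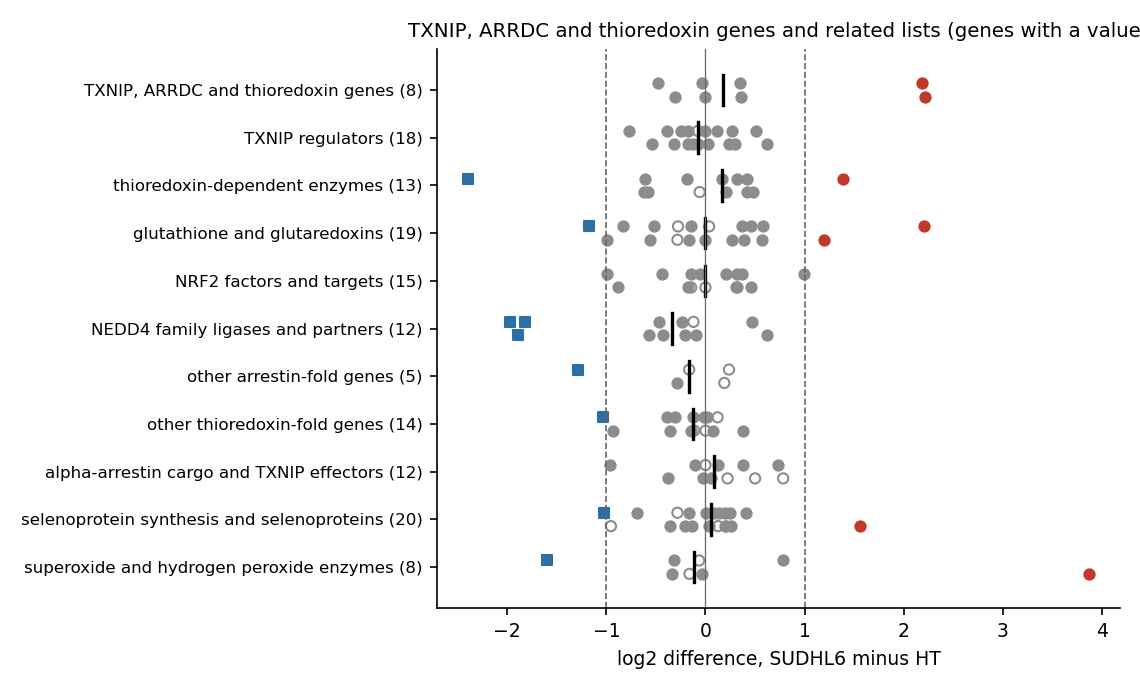
Log2 difference, SUDHL6 minus HT, of every gene with a value in 10 related lists and of the 8 members, with each list's number of such genes in brackets and its median as a black bar; red circles and blue squares passed the threshold of 1 in SUDHL6 or HT, and open symbols did not reach the dim level. The NEDD4 group holds 3 blue squares and 0 red circles, and CYBB is the rightmost point at 3.87.

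The enzymes that draw on thioredoxin differed in both directions. Of 15 listed genes, 13 had a value and 12 reached the dim level, with 1 higher in each line and a median of 0.16. At the same threshold, 5.30% of all genes reaching the dim level were higher in SUDHL6 and 6.99% in HT. RRM2, the small subunit of ribonucleotide reductase, which takes electrons from thioredoxin or glutaredoxin, stood at 11.02 in SUDHL6 and 9.62 in HT, 2.62-fold higher in SUDHL6. MSRB2, a mitochondrial methionine sulfoxide reductase, stood at 2.32 and 4.71, at least 1.86-fold higher in HT, and lost its call (-0.90) once low values were set to the dim level. The peroxiredoxin genes with a value, PRDX1, PRDX2, PRDX3, PRDX4 and PRDX6, whose products remove peroxides, differed by -0.62 to 0.48 and were named after their values were seen.

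The glutathione system, which runs beside the thioredoxin system, had 19 of 20 listed genes with a value and 16 that reached the dim level. Of these, 2 were higher in SUDHL6 and 1 in HT, where 5.30% and 6.99% of all genes reaching the dim level were. The median of the list was 0.00. GPX7, a peroxidase of the endoplasmic reticulum, stood at 6.53 in SUDHL6 and 4.32 in HT, 4.62-fold higher in SUDHL6. GGCT, an enzyme of glutathione breakdown, stood at 8.65 and 7.45, 2.29-fold higher in SUDHL6. GSR, the reductase that keeps glutathione reduced, stood at 7.14 and 8.31, 2.26-fold higher in HT.

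NRF2 is a factor known to drive TXNRD1. Of 21 listed genes for NRF2, its partners and its known targets, 15 had a value and 13 reached the dim level. Of the 15, 0 passed the threshold, against 8.12% of all genes, and the median was 0.00. That 0 holds for probe sets naming 1 gene. On a probe set shared with NFAT5, the target gene NQO1 stood at 2.93 in SUDHL6, below the dim level, and 4.42 in HT, a difference of -1.49. Of the 15, BACH1, a repressor at the elements that NRF2 binds, came nearest to the threshold, at 6.02 and 5.02. Its difference of 0.997 was just under 1 and was past it under each of 3 other scalings, at 1.04 to 1.07. Of 19 other thioredoxin-fold genes, 14 had a value, 11 reached the dim level and the median was -0.12. TXNL4B was the 1 gene of these 14 past the threshold, at 6.01 in SUDHL6 and 7.04 in HT, 2.05-fold higher in HT. Its difference was -0.99 to -0.91 under those scalings. TXNDC17, listed but without a probe set of its own, stood at 6.44 and 7.57 on a probe set shared with MED31 and KIAA0753, a difference of -1.14.

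The PRC2 subunit genes, the target of the study's inhibitor, differed by 0.35 (EZH2), -0.11 (EED) and -0.67 (SUZ12), all under the threshold of 1.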

How the data were processed

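The 2 value columns are log2 expression values per probe set that the authors deposited after RMA with the Affymetrix Expression Console, per the submitters' processing notes. The sources used here name no version, RMA setting, genome build or number of arrays normalized together. RMA compresses differences of dim genes. Of 22011 probe sets, 14432 named 1 gene in GEO's platform annotation, 2408 several, and 5171 have no name in it. Gene numbers linked 14404 of the 14432 to current RefSeq symbols, and the probe set with the highest mean represented each gene. A gene was called different at a log2 difference of at least 1 either way if the higher of its values was not below the dim level. Folds against a lower value are written "at least" and use the dim level.

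Members, lists and motifs were chosen with earlier results of these data known. Named genes were all members, up to 3 called genes of each of 10 lists by size (otherwise the furthest from 0 that reached the dim level), 3 PRC2 genes and the 3 nearest in difference to each called member. The procedure was tested on simulated data. Python 3.11.15, pandas 2.3.3 and statsmodels 0.14.6 (loess span 0.3) were used. The number of arrays limits the precision.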

Additional observations from a re-analysis of the deposited data

How the results depend on the processing

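The calls of the 8 members, 2 higher in SUDHL6 and 0 in HT, were the same under all 11 alternatives: 3 other scalings, 2 other dim levels, values raised to the dim level, 2 other thresholds and 3 other choices of probe sets. Several of these could not have changed the calls. Each member has 1 probe set naming it alone, so taking the mean or the lowest probe set left all members as they were. Including probe sets naming several genes replaced the value of ARRDC1 only. The dim level settings could not remove the calls of TXNIP and ARRDC3, whose SUDHL6 values lay far above it. The difference of TXNIP ran from 2.18 to 2.29 and that of ARRDC3 from 2.22 to 2.32. Over the related lists, each gene counted once, 5 were called for SUDHL6 and 9 for HT. At a 1.5-fold threshold these counts were 10 and 18, and at a 4-fold threshold 2 and 1, which follows from the threshold itself. Over all genes the main counts were 498 and 657, with 1058 and 1517 at 1.5-fold, 167 and 154 at 4-fold, and 576 and 568 after quantile normalization. The difference of BCHE turned to -0.18 with values raised to the dim level, by construction. SEPHS1 fell under the threshold with each other scaling, at -0.98 to -0.97. The median of all genes moved to -0.30 with values raised to the dim level, which is the gap between the dim levels. No replicate could be left out. No paired analysis was possible because each line has 1 array. Signal near the dim level limits what can be said of TXN2 and ARRDC1.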

Other observations

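Genes that produce or remove superoxide differed in both directions. Of 12 listed genes, 8 had a value and 6 reached the dim level. CYBB, the catalytic subunit of the phagocyte NADPH oxidase, which B cells also express, stood at 9.37 in SUDHL6 and 5.50 in HT, 14.6-fold higher in SUDHL6. NCF4, a cytosolic subunit of the same oxidase, ran the other way, at 4.11 and 5.71, 3.02-fold higher in HT. The superoxide dismutase gene SOD1 (9.97 and 10.30) and the catalase gene CAT (7.15 and 7.46), both named after their values were seen, differed by less than 1. The median of the list was -0.11. Another dismutase gene, SOD2, has no probe set naming it alone. It stood at 6.23 and 7.54, a difference of -1.31, on a probe set shared with SOD2-OT1. On a probe set shared with FAM177B it was below the dim level of both lines, at 3.07 and 2.19.

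Thioredoxin reductases need selenocysteine, and of 22 listed selenoproteins and genes of its synthesis, 20 had a value and 17 reached the dim level, with a median of 0.06. SEPSECS, the enzyme of the last step of selenocysteine synthesis, stood at 5.74 in SUDHL6 and 4.18 in HT, 2.95-fold higher in SUDHL6. SEPHS1, a relative of the selenophosphate synthetase SEPHS2, stood at 4.81 and 5.84, 2.04-fold higher in HT, a call that other scalings did not keep.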
